A study of Bos taurus with 8 samples.

Results

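The 10 genes CERS3, CERS2, ELOVL1, ELOVL4, ABCA12, ALOX12B, ALOXE3, DEGS2, UGCG and ABHD5 encode enzymes and carriers that build the ceramide barrier of the epidermis. They were taken by symbol from the 33132 genes counted in RNA from rumen tissue, and all 10 were found. The rumen is the part of the stomach in which cattle ferment their feed. One group was 4 male calves at birth and the other 4 adult steers, which are castrated males. Every animal was an angus cross and gave 1 library. The labels give no exact age, diet or batch, and age and castration differ together between the groups. The question is which genes differ between the newborn and the grown rumen, and the design holds 1 comparison, steer against calf.

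In epidermis, ceramides made from a sphingoid base and a very long fatty acid are packed into lamellar bodies, secreted between the cells of the outer layers and partly bound to the cornified envelope. ELOVL enzymes lengthen the fatty acid and ceramide synthases join it to the base. UGCG adds glucose, and ABCA12 loads the product into the lamellar body. ALOX12B and then ALOXE3 oxidise the linoleate of acylceramide before it is attached to protein. Inherited loss of CERS3, ABCA12, ALOX12B, ALOXE3 or ABHD5 causes ichthyosis in people, a scaling skin disease with a leaky barrier. The rumen is lined by a stratified squamous epithelium that also cornifies.

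The steer libraries held very few counts of CERS3 and ELOVL4, the enzymes for ultra-long acyl chains. CERS2 and ELOVL1, the general enzymes of the same families, were not called, though ELOVL1 was lower in every steer than in any calf. The fall was not particular to the ultra-long enzymes. Of their relatives outside the 10, CERS1, CERS6, ELOVL5 and ELOVL7 were also called lower, with log2 changes of -1.23, -1.67, -1.46 and -5.69. CERS4, CERS5 and ELOVL6 were tested and not called. CERS3 was 35.1-fold and ELOVL4 26.9-fold lower in steers. Of the 10 members 9 passed the filter on low counts. Of these 9, 2 fell and 0 rose in edgeR's quasi-likelihood test at a Benjamini-Hochberg adjusted p under 0.05 over all 16326 genes tested. Of all tested genes 9.16% were called lower and 7.7% higher in steers, 16.9% in all. Among the 9 tested members 4 more, CERS2, ELOVL1, DEGS2 and ABHD5, had an unadjusted edgeR p under 0.05 (0.0342, 0.0332, 0.0432 and 0.0116). DESeq2 called 1 member higher, ABHD5, and limma-voom 0. The median log2 change of the 9 was -1.06, beside 0.04 for all tested genes. Levels are given as CPM, the count scaled to its library's TMM-adjusted total, and means with the SD over 4 animals.

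**Figure D1:**
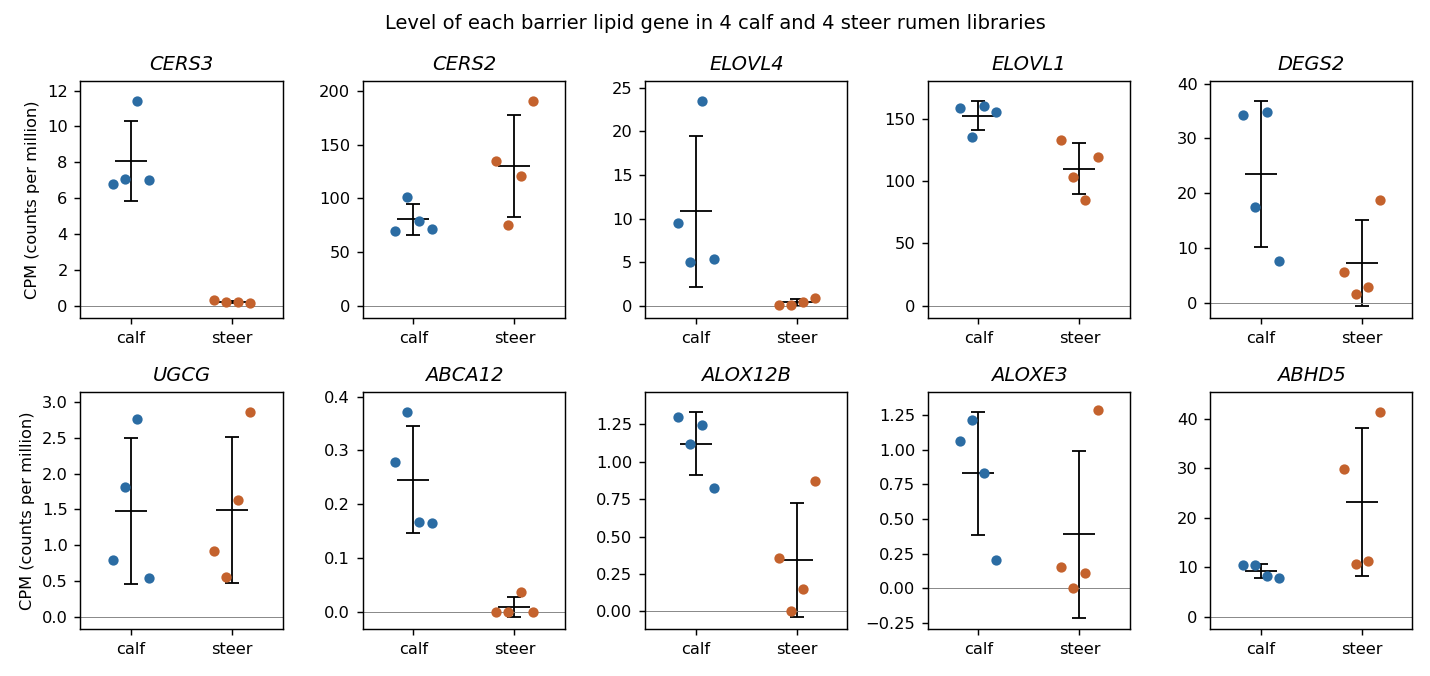
CPM (linear axis) of each of the 10 genes, 1 point per library, with libraries 1 to 4 from left to right within a group, calves in blue and steers in orange, and black bars for the mean and SD of 4 animals. CERS3, ELOVL4 and ABCA12 lie near 0 in all steers, ELOVL1 and ABHD5 do not overlap between the groups, and the other 5 genes overlap.

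Library totals were 42322022 to 54449684 counts. The sum over 8 basal keratinocyte markers, which include KRT5 and TP63, was 11315 to 15966 CPM in calves and 6474 to 13166 CPM in steers. Squamous epithelium was thus present in every library. Of these 8 basal markers 1 rose, DST, and 1 fell, COL17A1 (edgeR adjusted p = 0.0154 and 0.00227). KRT15, the basal marker with the highest mean, was at 8599 ± 2272 CPM in calves and 4700 ± 2197 CPM in steers (adjusted p = 0.170). Only KRT15 and COL17A1 had a negative log2 change, and the median over the 8 was 0.36. The sum and the mean log2 CPM of this list thus need not move alike. A sum over 12 markers of the upper squamous layers was 39937 to 93433 CPM in calves and 911.7 to 3320 CPM in steers, and 8 of the 10 tested among them fell. The desmosomal cadherin DSC2 (edgeR adjusted p = 0.739) and the transglutaminase TGM3 (adjusted p = 0.449) were tested and not called. IVL and DSG1 were not tested and had no count, since their spans lie wholly inside other genes, where reads were dropped. The sum over 8 smooth muscle markers was 4249 to 13126 CPM in calves and 9325 to 93022 CPM in steers, lowest in steer 4 and highest in steer 2, and 5 of the 8 rose. In whole tissue, fewer cells of a type and less RNA per cell cannot be told apart. The part of the upper layer markers in the results for the members was not tested. The smooth muscle and basal markers were each entered as a covariate, the mean log2 CPM of the list. The smooth muscle sum was 45691 to 93022 CPM in steers 1 to 3, above every calf, and only steer 4 lay in the calf range. The smooth muscle covariate thus varies largely with group. A call lost or gained with it cannot tell muscle content and group apart.

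CERS3, the synthase that joins ultra-long acyl chains to the sphingoid base, spans 6079335 to 6238774 of chromosome 21. Positions here are those in the count file, for which no build is named. CERS3 was at 6.82, 7.08, 11.4 and 7.03 CPM in calves 1 to 4 and at 0.304, 0.223, 0.225 and 0.174 CPM in steers 1 to 4. Every calf was far above every steer, and calf 3 stood above the other calves. CERS3 fell from a mean of 8.08 ± 2.21 CPM to 0.232 ± 0.0537 CPM, and its log2 change was -5.14 ± 0.36 (SE, edgeR adjusted p = 8.51e-05). The steer values rest on 8 to 12 counts per library, against 294 to 548 in calves. The log2 change was -5.27 to -4.92 over all 21 alternatives, and -5.03 with the smooth muscle covariate.

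CERS2, the broadly expressed synthase for very long chains (chromosome 3, 19792945 to 19802013), did not share that fall. It was at 70.1, 101, 79.1 and 71.7 CPM in calves and at 135, 74.9, 121 and 190 CPM in steers. Steers 1, 3 and 4 lay above all calves, and steer 2 lay within their range. The log2 change was 0.68 ± 0.28 (SE, edgeR adjusted p = 0.123). CERS2 was called higher without steer 2 (0.88, adjusted p = 0.0373) and with the smooth muscle covariate (1.27, adjusted p = 0.0232). Within a library, the log2 ratio of CERS3 to CERS2 was -3.33 ± 0.42 in calves and -8.84 ± 0.69 in steers. The difference of -5.51 in this ratio, which does not depend on the scaling of the libraries, had an adjusted p of 0.0476 in a two-sided exact permutation test (p = 0.0286, the smallest that 70 splits allow, adjusted over 5 gene pairs).

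The other ceramide synthases moved in part. CERS1, known mainly from brain and muscle, fell from 169 ± 27.5 to 72.8 ± 12.8 CPM (log2 change -1.23 ± 0.21, edgeR adjusted p = 0.0043). CERS6, which makes ceramides with shorter chains, fell from 1.54 ± 0.175 to 0.482 ± 0.230 CPM (-1.67 ± 0.43, adjusted p = 0.0249), but its call was lost without any 1 of the libraries except steer 4, and with the smooth muscle covariate (-1.16, adjusted p = 0.222). With that covariate CERS1 was at -1.08 and not called (adjusted p = 0.0612). CERS4 and CERS5 had log2 changes of 0.30 ± 0.50 and 0.03 ± 0.35, and neither was called. With the smooth muscle covariate CERS4 turned to -1.47 and was called lower (edgeR adjusted p = 0.0401).

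ELOVL4, which extends fatty acids to the ultra-long chains of acylceramide (chromosome 9, 19602132 to 19640939), was at 9.44, 5.07, 23.4 and 5.32 CPM in calves. In steers it was at 0.0507, 0.111, 0.450 and 0.942 CPM, the lowest of these from 2 counts. The groups did not overlap, although both spread widely, with calf 3 highest among calves and steer 4 highest among steers. ELOVL4 fell from a mean of 10.8 ± 8.65 CPM to 0.389 ± 0.409 CPM, with a log2 change of -4.75 ± 0.88 (SE, edgeR adjusted p = 0.00622). With the smooth muscle covariate the change was -3.05 and no longer called (adjusted p = 0.0788). Leaving out libraries moved it between -5.89 (without calf 2 and steer 4) and -4.04 (without calf 3), and it stayed called in each of those 9 fits.

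ELOVL1, the general elongase for saturated very long chains (chromosome 3, 102629338 to 102654978), was at 158, 135, 160 and 155 CPM in calves and at 133, 103, 84.9 and 119 CPM in steers. All calves lay above all steers, the nearest being calf 2 and steer 1, but the log2 change was small, -0.48 ± 0.20 (SE, edgeR adjusted p = 0.121). It was called with library size as the only scaling (-0.60, adjusted p = 0.0498), a scaling that shifted the median of all genes by -0.11. The uncharacterised gene LOC100335822 shares 23.9% of the counted span of ELOVL1, and reads there were not counted. The log2 ratio of ELOVL4 to ELOVL1 was -4.10 ± 0.95 in calves and -8.56 ± 1.67 in steers, a difference of -4.46 (two-sided exact permutation test, p = 0.0286, adjusted p = 0.0476).

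Among the other elongases ELOVL7 showed the largest difference. It also acts on long saturated chains, and was at 18.5, 8.72, 49.9 and 4.99 CPM in calves against 0.101, 0.0557, 0.638 and 0.733 CPM in steers. As for ELOVL4, calf 3 was highest of the calves and steer 4 highest of the steers. Its log2 change was -5.69 ± 0.97 (SE, edgeR adjusted p = 0.00444), and with the smooth muscle covariate it was -3.96 and not called (adjusted p = 0.0874). ELOVL5, which lengthens polyunsaturated fatty acids, fell from 22.4 ± 2.62 to 8.19 ± 3.46 CPM (-1.46 ± 0.31, adjusted p = 0.0111) and stayed called in all 21 alternatives. ELOVL6, the elongase of palmitate, was at 23.1 ± 4.78 and 18.9 ± 9.26 CPM (adjusted p = 0.605). ELOVL2 and ELOVL3 did not pass the filter. ELOVL3 was at 3.73 CPM in calf 4 and at most 0.820 CPM in any other library.

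**Figure D2:**
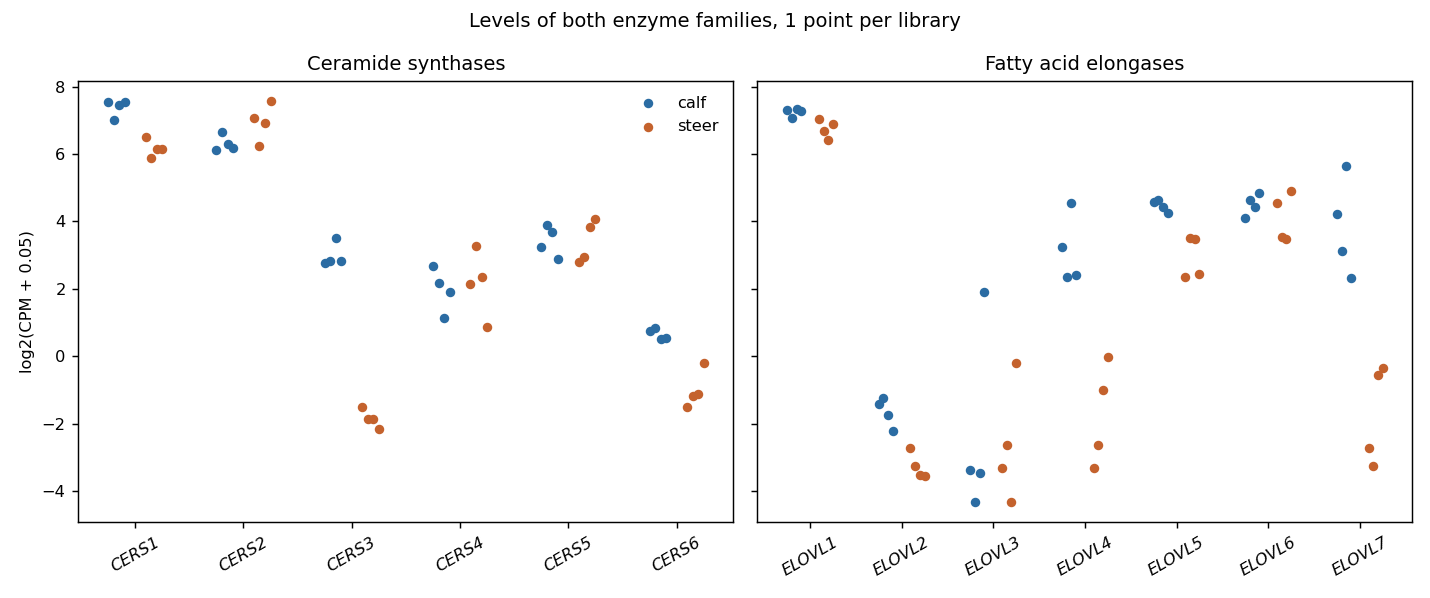
Levels of the 6 ceramide synthases (left) and 7 fatty acid elongases (right) as log2(CPM + 0.05), 1 point per library, calves in blue and steers in orange, with libraries 1 to 4 from left to right. The groups are widest apart for CERS3, ELOVL4 and ELOVL7, while CERS4, CERS5 and ELOVL6 overlap.

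DEGS2, which adds the hydroxyl group of phytoceramides (chromosome 21, 65091253 to 65110055), was at 34.2, 17.5, 34.8 and 7.67 CPM in calves. In steers it was at 5.53, 1.67, 2.93 and 18.7 CPM. Steers 1 to 3 lay below all calves, and steer 4 lay within their range. The log2 change was -1.71 ± 0.74 (SE, edgeR adjusted p = 0.143). DEGS2 was called lower by DESeq2 (-1.72, adjusted p = 0.0474) and by edgeR without steer 4 (-2.82, adjusted p = 0.0125), and with the smooth muscle covariate the change was -0.35 (adjusted p = 0.769). An uncharacterised gene on the other strand, LOC104975442, shares 11.8% of its counted span. Its relative DEGS1, the general dihydroceramide desaturase, lies wholly inside the gene NVL and had no count in any library, so the planned ratio of DEGS2 to DEGS1 could not be formed.

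UGCG, the glucosylceramide synthase (chromosome 8, 101283115 to 101320033), was the member with the smallest change. It was at 0.789, 1.81, 2.77 and 0.536 CPM in calves and at 0.912, 0.557, 1.63 and 2.86 CPM in steers. The ranges nearly coincide, with means of 1.47 ± 1.02 and 1.49 ± 1.02 CPM, and the log2 change was 0.01 ± 0.64 (SE, edgeR adjusted p = 0.992). The standard error is too wide to show a change of 2-fold in either direction. The sign of the change turned in 7 of 21 alternatives, with a range from -0.52 without steer 4 to 1.30 with the smooth muscle covariate.

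ABCA12, the lipid transporter of lamellar bodies (chromosome 2, 103002532 to 103202095), was scarce in both groups. It had 12, 22, 8 and 8 counts in calves, which is 0.278, 0.372, 0.166 and 0.165 CPM, and 2 counts in steer 3 with none in the other steers. All 4 calves lay above all 4 steers. Because each mate of a pair adds to the count, the groups were also compared in pairs, 25 in calves against 1 in steers. This gives a ratio of 23.4 with an exact 95% interval of 3.83 to 960, which covers counting error only. A count of 0 in a steer library allows up to 0.0523 to 0.0836 CPM, from 3 counts, if single counts are independent. Since mates mostly count together, the limit in pairs is higher, and it was not computed. With no filter except 1 count edgeR gave ABCA12 an adjusted p of 0.036. The log2 ratio of ABCA12 to UGCG was -2.19 ± 1.10 in calves and -4.72 ± 0.98 in steers (difference -2.53, two-sided exact permutation test, p = 0.0286, adjusted p = 0.0476). In the 3 steers with no ABCA12 count, the prior count of 2 sets that ratio, and with a prior count of 0.5 the difference was -4.03. The 3 ratios that passed, each of a member against a relative or partner, did not pass without steer 1, 3 or 4 (adjusted p = 0.0714 for CERS3 and ELOVL4, 0.0952 for ABCA12). For CERS3 and ELOVL4 the groups stayed apart in these fits, with differences of -5.59 to -5.20 and -5.00 to -3.81. Their adjusted p rose because fewer of the 5 pairs then reached the smallest p. Without steer 2 the ratio of ABCA12 to UGCG did not pass either (0.0714, same permutation test).

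The paired lipoxygenases ALOX12B and ALOXE3 lie side by side on chromosome 19 (27718184 to 27730010 and 27739371 to 27760112). ALOX12B was at 1.30, 1.12, 1.25 and 0.825 CPM in calves and at 0.355, 0, 0.150 and 0.872 CPM in steers. ALOXE3 was at 1.07, 1.22, 0.832 and 0.206 CPM in calves and at 0.152, 0, 0.113 and 1.29 CPM in steers. In both genes steers 1 and 3 were low, steer 2 had no count and steer 4 lay within or above the range of calves. The log2 changes were -1.68 ± 0.86 for ALOX12B and -1.06 ± 1.06 for ALOXE3 (SE, edgeR adjusted p = 0.216 and 0.544). Without steer 4 they were -2.73 (adjusted p = 0.0565) and -3.18 (adjusted p = 0.047). With the smooth muscle covariate they were -0.21 and 0.28. The log2 ratio of ALOX12B to ALOXE3 was 0.63 ± 0.83 in calves and 0.20 ± 0.66 in steers, and the difference did not pass (two-sided exact permutation test, p = 0.514). Steer 2 had no count of either gene, so its ratio of 0 comes from the prior count alone.

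Of the other lipoxygenase genes ALOX12, known from platelets and skin, fell from 6.90 ± 3.27 to 1.73 ± 1.08 CPM (log2 change -2.01 ± 0.53, edgeR adjusted p = 0.028). An uncharacterised gene, LOC100848492, shares 80.2% of its counted span, and the call was lost in 8 of 21 alternatives, among them the smooth muscle covariate (-1.50, adjusted p = 0.257). ALOX5AP, the partner protein of the leukotriene enzyme ALOX5, rose from 0.337 ± 0.076 to 1.08 ± 0.447 CPM (1.66 ± 0.47, adjusted p = 0.0363) but lost its call in 13 of 20 alternatives. It was at 1.99 with the smooth muscle covariate (edgeR adjusted p = 0.0898) and at 1.45 with the basal one (0.0834). The sum over 7 leukocyte markers was 5.37 to 9.02 CPM in calves and 16.7 to 55.0 CPM in steers, and its part in the ALOX5AP result was not tested. AIF1, in that list, could not be measured, since its span lies wholly inside NCR3.

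ABHD5, the activator of the triglyceride lipase PNPLA2 and a partner of PNPLA1 in acylceramide synthesis (chromosome 22, 15584966 to 15626752), was the only member besides CERS2 and UGCG with a positive log2 change. It was at 10.3, 10.4, 8.25 and 7.71 CPM in calves and at 29.8, 10.5, 11.3 and 41.3 CPM in steers. All steers lay above all calves, but steers 2 and 3 only just, and the difference in the means comes mostly from steers 1 and 4. The log2 change of 1.33 ± 0.43 missed the threshold (SE, edgeR adjusted p = 0.0615). It was called without steer 2 (1.58, adjusted p = 0.0267), without steer 3 (1.56, adjusted p = 0.0398), with DESeq2 (1.33, adjusted p = 0.0159) and with the smooth muscle covariate (2.17, adjusted p = 0.0126). It was smallest without steer 4 (0.89, adjusted p = 0.122). PNPLA2 was at 154 ± 43.8 and 151 ± 53.6 CPM, and the log2 ratio of ABHD5 to PNPLA2 was -4.03 ± 0.48 in calves and -2.87 ± 1.33 in steers (two-sided exact permutation test, p = 0.143, adjusted p = 0.179, and 0.0476 without steer 2). Among the adipocyte markers the sum over 6 genes was 5.82 to 525 CPM in calves and 38.9 to 445 CPM in steers. FABP4 made up most of the sum in calf 4 and in all 4 steers, and ADIPOQ was at most 0.446 CPM in any steer. Their part in the ABHD5 values was not tested.

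**Figure D3:**
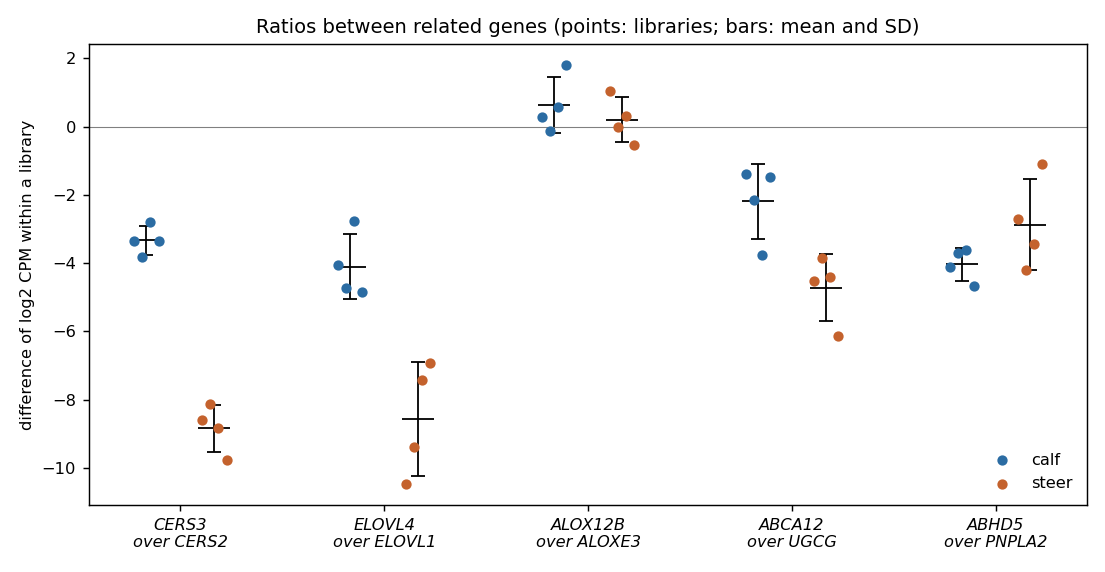
Difference of log2 CPM between 2 related genes within each library, for 5 gene pairs, with points for libraries, calves in blue and steers in orange, and bars for the mean and SD of 4 animals. The ratios of CERS3 to CERS2, ELOVL4 to ELOVL1 and ABCA12 to UGCG are lower in all 4 steers than in any calf, and the other 2 overlap.

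Of the 9 tested members 4 had ranges that did not overlap between the groups, as did 23.5% of all tested genes. CERS3, ELOVL1 and ELOVL4 were lower in all 4 steers than in any calf (12.6% of all tested genes), and ABHD5 was higher (10.9%). Within the steers, steer 4 held the highest level of 7 of the 10 and steer 2 the lowest of 6. Steer 4 also had the lowest smooth muscle sum of the steers (9325 CPM against 45691 to 93022 CPM) and the highest sum of upper squamous markers (3320 CPM), and steer 2 had the highest muscle sum and the lowest squamous sum (911.7 CPM). Of the 2 members that fell, ELOVL4 was highest in steer 4 among steers and CERS3 lowest. The CERS3 values rest on 8 to 12 counts per steer library, too few to rank the steers. Among calves, calf 3 held the highest level of 5 of the 10 and calf 2 of 4, and calf 4 held the lowest of 6. The upper squamous sum was 83595 CPM in calf 3, 73715 CPM in calf 4 and lowest in calf 2, at 39937 CPM. The smooth muscle sum was 4249 CPM in calf 3, 9258 CPM in calf 4 and 9541 CPM in calf 2. The part of these marker levels in the order of the steers or of the calves was not tested.

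Set against the mean of the 8 basal keratinocyte markers in the same library, CERS3 was lower in steers by a log2 difference of -4.97, ELOVL4 of -5.03, ABCA12 of -2.58 and ELOVL1 of -0.58, and ABHD5 was higher by 1.01. Each of these 5 reached the smallest p of a two-sided exact permutation test (0.0286), which becomes an adjusted p of 0.0571 over the 10 members, so none passed. For ABCA12 the prior count of 2 sets the value in the 3 steers with no count, and with a prior count of 0.5 the difference was -4.08. The differences were -2.40 for ALOX12B, -2.15 for DEGS2, -1.97 for ALOXE3, 0.54 for CERS2 and -0.05 for UGCG, with adjusted p of 0.0952 to 0.886 in the same permutation test.

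**Figure D4:**
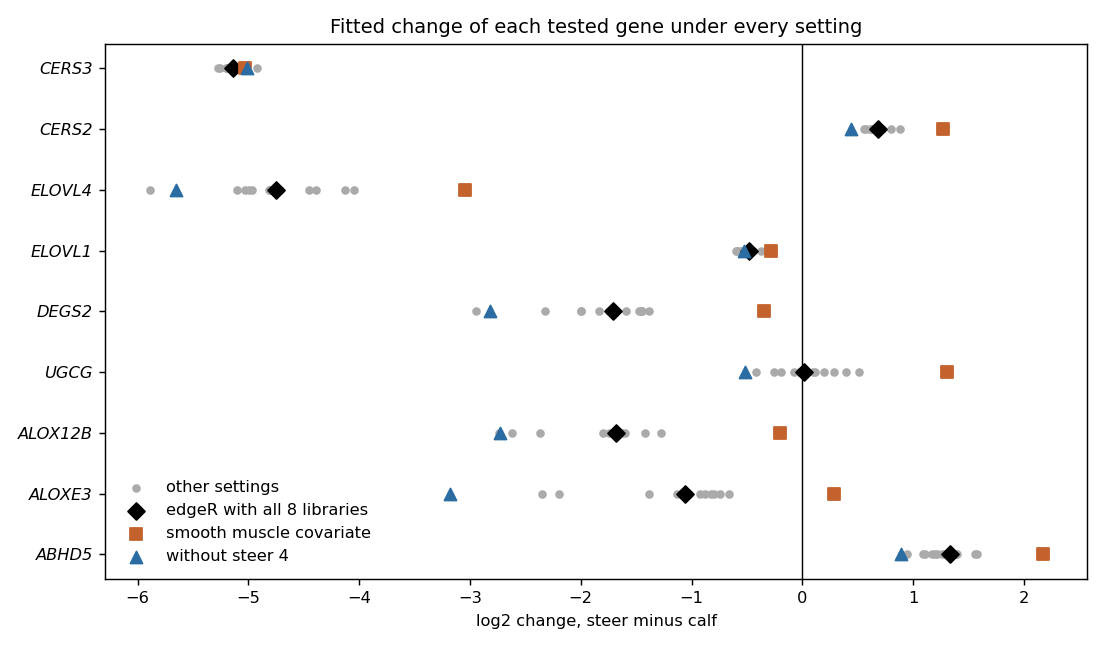
Fitted log2 change (steer minus calf) of each of the 9 tested genes under all settings, with a black diamond for edgeR on all 8 libraries, an orange square with the smooth muscle covariate, a blue triangle without steer 4 and grey points for the other settings. CERS3 stays between -5.27 and -4.92, whereas ELOVL4, DEGS2, ALOX12B and ALOXE3 move by more than 2 log2 units.

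Between genes, levels can be set side by side only per length, here as CPM per kilobase of the counted span. Introns count as length in this measure, which lowers genes with long introns such as ABCA12 and CERS3. In calves the order was CERS2 (8.87 ± 1.57), ELOVL1 (5.93 ± 0.45), DEGS2 (1.25 ± 0.71), ELOVL4 (0.279 ± 0.223), ABHD5 (0.219 ± 0.0331), ALOX12B (0.0948 ± 0.018), CERS3 (0.0507 ± 0.0139), ALOXE3 (0.0400 ± 0.0215), UGCG (0.0399 ± 0.0277) and ABCA12 (0.00123 ± 0.0005). DEGS2 and ELOVL4, ELOVL4 and ABHD5, and all neighbours from ALOX12B to UGCG overlapped in their ranges. In steers CERS2 (14.4 ± 5.23) and ELOVL1 (4.29 ± 0.80) remained first and second, followed by ABHD5 (0.556 ± 0.358) and DEGS2 (0.383 ± 0.416), which overlapped. ELOVL4 (0.0100 ± 0.0105) and CERS3 (0.00145 ± 0.000337) came eighth and ninth, before ABCA12.

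The rest of the pathway was read from 8 lists of ceramide and barrier lipid genes. Of 75 tested genes in these lists 2 rose and 12 fell, 18.7% in all against 16.9% of all tested genes. Their median log2 change was -0.23, beside 0.04 for all tested genes. Of 9 tested genes for serine palmitoyltransferase and the sphingoid base none was called by edgeR, DESeq2 or limma-voom and 0 had an unadjusted edgeR p under 0.05, with a median of 0.03. SPTSSB, a small subunit of that enzyme, was at 5.42 ± 5.10 and 16.5 ± 15.2 CPM (edgeR adjusted p = 0.158). Of 10 tested genes for acylceramide formation edgeR and limma-voom called 0 and DESeq2 2, both lower, and 2 had an unadjusted edgeR p under 0.05. The median was -0.30. PNPLA1, the transacylase that makes acylceramide, ranged from 2.47 to 43.5 CPM in calves and from 1.00 to 11.6 CPM in steers (log2 change -2.07 ± 0.99, adjusted p = 0.183). CYP4F22 and HCAR2 were not analysed here.

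In the list for glucosylceramide, sphingomyelin and glycolipid formation 1 of 9 tested genes fell, UGT8, which makes galactosylceramide. It was at 1.01 ± 0.453 CPM in calves and 0.0933 ± 0.112 CPM in steers (log2 change -3.46 ± 0.99, edgeR adjusted p = 0.0397), and the call was lost in 8 of 20 alternatives, among them the basal covariate (-3.43, adjusted p = 0.0527). Galactosylceramide is a lipid of myelin. Of 6 glia and myelin markers 1 fell and 1 rose, with sums of 155 to 172 CPM in calves and 210 to 343 CPM in steers, and their part in the UGT8 result was not tested. Of 17 tested genes for release and breakdown 1 rose and 3 fell. SMPD3, a neutral sphingomyelinase, fell by 3.79 ± 0.69 on the log2 scale (adjusted p = 0.00576). Other genes overlap 71.5% of the span over which it was counted. SGPL1, which cleaves sphingosine phosphate, fell from 42.5 ± 6.63 to 15.8 ± 5.04 CPM (-1.44 ± 0.26, adjusted p = 0.00542), and SMPD2 by 1.03 ± 0.26 (adjusted p = 0.0224). ACER2, a ceramidase of the Golgi, rose from 5.66 ± 0.705 to 11.5 ± 3.61 CPM (1.00 ± 0.27, adjusted p = 0.0319). With the smooth muscle covariate SMPD3 was at -3.04 (edgeR adjusted p = 0.0924) and SGPL1 at -1.15 (adjusted p = 0.075), and neither was called. The call of SMPD2 ended without calf 1, calf 4 or steer 3. That of ACER2 ended in 10 of 21 alternatives, among them the smooth muscle covariate (1.17, adjusted p = 0.0844).

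Of 12 tested genes for other barrier lipids and lamellar bodies 3 fell and 0 rose in edgeR. DESeq2 and limma-voom also called 0 higher, and 1 had an unadjusted edgeR p under 0.05 in that direction. DGAT2, an enzyme of triglyceride synthesis, was at 6.63, 49.5, 26.6 and 150 CPM in calves and at 2.64, 1.95, 1.69 and 2.06 CPM in steers (log2 change -4.83 ± 0.83, edgeR adjusted p = 0.00459). The sum of the adipocyte markers was also highest in calf 4 (525 CPM) and calf 2 (148 CPM) among calves. In steers 1 to 4 that sum was 445, 38.9, 139 and 178 CPM, while DGAT2 stayed at 1.69 to 2.64 CPM. The part of the adipocyte markers in the DGAT2 result was not tested. ABCG1, a sterol exporter, fell by 2.65 ± 0.53 (adjusted p = 0.00879), and the desaturase SCD by 1.62 ± 0.41 (adjusted p = 0.0239). With the smooth muscle covariate none of the 3 was called by edgeR. DGAT2 was then at -4.64 (adjusted p = 0.0766) and ABCG1 at -2.64 (adjusted p = 0.103), while SCD was at -0.60 (adjusted p = 0.426). The call of SCD also ended without calf 3, calf 4, steer 1 or steer 3. SULT2B1, which makes the cholesterol sulfate of the cornified layer, was at 119 ± 81.6 and 34.3 ± 27.5 CPM (adjusted p = 0.115).

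**Figure D5:**
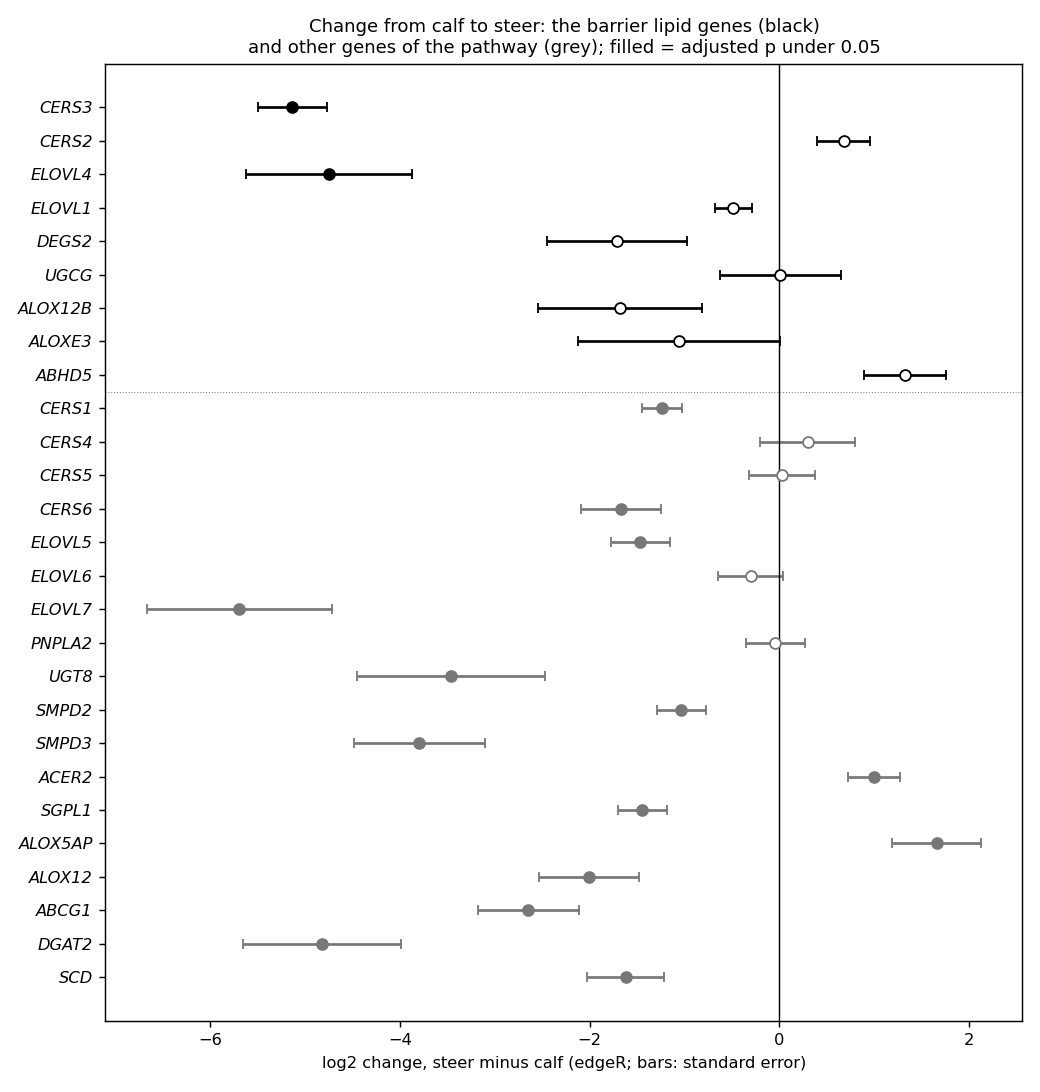
Log2 change, steer minus calf, with its standard error from edgeR, for the 9 tested members (black, above the dotted line) and for other genes of the pathway (grey), filled where the adjusted p is under 0.05. CERS3 (-5.14) and ELOVL4 (-4.75) are the 2 filled black points, and ELOVL7 (-5.69) and DGAT2 (-4.83) are the lowest grey ones.

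The genes whose levels over the 8 libraries were most like those of CERS3 and ELOVL4 were taken from 14151 other tested genes with a symbol, by the root mean square difference of centred log2 CPM. Nearest to CERS3 were the peptide transporter SLC15A2 (0.23 log2 units), the inflammatory caspase CASP1 (0.32) and CPXM1, a carboxypeptidase-like secreted protein (0.39). SLC15A2 was at 1.28 ± 0.223 CPM in calves and had no count in any steer, so its distance depends on the prior count. CASP1 fell from 24.0 ± 1.12 to 0.749 ± 0.106 CPM (log2 change -5.01 ± 0.23, edgeR adjusted p = 1.54e-05). Nearest to ELOVL4 were GSDMA, a gasdermin of squamous epithelia (0.58), the chloride channel CFTR (0.60) and ELOVL7 (0.60). CFTR was at 0.0443 ± 0.0659 CPM in steers, and ELOVL4 and ELOVL7 had 2 to 4 counts in steers 1 and 2. The distances from ELOVL4 thus also depend in part on the prior count. All these distances describe the 8 libraries and were not tested.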

How the data were processed

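The authors deposited whole-number counts per gene, not normalised. Per the file headers, featureCounts 2.0.2 was run on transcript features grouped by gene name, so intron reads count. No strand option was set, each mate counts (86.9% to 89% of counts from 1 to 10 were even), and reads in more than 1 gene were dropped. The submitters' processing notes also name Trimmomatic 0.39, STAR 2.7.11a and DESeq2 1.42.0. The build was not given. Libraries of a group differed beyond sampling noise.

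The steer against calf test used edgeR 4.0.16 in R 4.3.3 with filterByExpr, TMM and robust quasi-likelihood fits. The SE was taken as the size of the log2 change over the root of F. Log2 ratios used a prior count of 2, and exact permutation tests all 70 splits. Alternatives also used DESeq2 1.42.0 and limma 3.58.1 (voom). The procedures were tested on simulated data. Chromosome numbers came from symbols matched to a table of the ARS-UCD2.0 assembly (27621 of 33132). CERT1 stands in the file as COL4A3BP. Some listed genes are not reported here by name. Only counting error enters intervals and floors.

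The members and lists were chosen with earlier results of these data known. Named were all members, 11 paralogues and partners, up to 3 called genes per list and direction, and the 3 genes most like each called member. SPTSSB, PNPLA1 and SULT2B1 were named after their values were seen.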

Additional observations from a re-analysis of the deposited data

Results flagged for a closer look

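Among the 10 members and the 14 called pathway genes, 48 groups of 4 libraries were looked at, and 3 held a library far from the other 3 of its group. Chance flags about 1 group in 20. CERS3 was at 11.4 CPM in calf 3 against 6.82 to 7.08 CPM in the other calves. ABCA12 was at 0.0375 CPM in steer 3, from 2 counts, and at 0 in the other steers. Any count beside values of 0 in the other 3 is flagged, so the rate of 1 in 20 does not hold for that group. ALOXE3 was at 1.29 CPM in steer 4 against 0 to 0.152 CPM in the other steers.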

How the results depend on the processing

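Over all genes, edgeR called 2752 (1257 higher in steers, 1495 lower). Higher calls numbered 835 with library size only, which put 34.9% of calls on the higher side against 45.7%, and 1944 of 4080 with DESeq2. With the replicate number as a block 1831 genes were called, 785 of them higher. Leaving out libraries gave 1734 (without calf 1) to 3257 (without steer 4) calls, 705 to 1473 higher and 1029 to 1784 lower. Of the members 2 were called, both lower. DESeq2 called 4, of which 1 was higher, and the smooth muscle covariate 2 higher and 1 lower. Leaving out libraries gave 2 to 4 calls, 0 to 2 higher and 2 to 4 lower. With counts halved to pairs, an alternative chosen after seeing the data, 2 members were called. Of the pathway genes 14 were called, 2 of them higher. Higher calls numbered 1 with library size only, with no filter, with at least 1 CPM in 4 libraries and with limma-voom, 4 with DESeq2 and 0 with the replicate block. The smooth muscle covariate gave 9, with 5 higher and 4 lower. Leaving out libraries gave 8 to 20, with 0 to 4 higher and 7 to 17 lower. Of the 5 member ratios 3 passed the exact permutation test. With the replicate block 0 passed, since an exact sign-flip permutation over 4 pairs cannot go below p = 0.125, and 0 to 3 passed with a library left out. Relative to basal markers 0 members passed, and 0 to 6 with a library left out, the 6 without steer 2 or steer 4.

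Some log2 changes turned sign. With the smooth muscle covariate ALOXE3 was at 0.28, CERS4 at -1.47 (edgeR adjusted p = 0.0401) and ELOVL6 at 0.46. With library size only UGCG was at -0.076 and CERS5 at -0.060, and with the replicate block at -0.033 and -0.032. Leaving out libraries moved UGCG from -0.52 to 0.51, CERS4 from -0.16 to 0.62, CERS5 from -0.22 to 0.22 and PNPLA2 from -0.20 to 0.14, and UGCG relative to basal markers from -0.46 to 0.40. The cause was not tested. Deviations of same-numbered animals correlated at 0.20, 0.08, -0.10 and -0.27 over genes, and those of other calf and steer pairs at -0.38 to 0.34. These values show no sign that the replicate numbers pair calves with steers, but cannot exclude it. The block is given only here. Depth limits ABCA12, with 0 to 22 counts per library, and the steer values of CERS3, with 8 to 12.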
